A study of Mus musculus with 12 samples.

Results

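The effect of Zbed6 silencing at 48 h was measured on 6 of the 12 expression arrays of the series. C2C12 cells given ZBED6 siRNA for 48 h (Zbed6-silenced, 3 arrays) were compared with C2C12 cells given a negative control siRNA for the same time (control, 3 arrays). The remaining 6 arrays held the same 2 treatments at 96 h and were used only where the 48 h effect was set beside the 96 h effect. C2C12 is an established line of mouse myoblasts, the precursor cells of skeletal muscle fibres. All cells were kept in serum-containing growth medium and reverse transfected with lipofectamine 2000 in antibiotic-free medium. The siRNA was a transient pool acting in an uncloned culture of 1 cell line, and the labels call the 3 samples of each group biological replicates. Total RNA was hybridised to Illumina MouseRef-8 v2 BeadChips, on which short bead-bound probes report the abundance of each transcript as fluorescence intensity. Of 25697 probes, 13095 had a detection p under 0.05 on at least 3 of the 12 arrays. Those probes held 12332 with a gene name, and they stood for 8858 genes, each represented by its brightest kept probe.

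ZBED6 is a transcription factor that arose from a domesticated DNA transposon and is encoded within an intron of Zc3h11a in placental mammals. Its best-known target is Igf2, which it represses and which encodes an insulin-like growth factor that promotes growth and differentiation of muscle cells. Myoblasts multiply while growth factors are present, and on withdrawal they leave the cell cycle, switch on sarcomere genes and fuse into myotubes. Myotube formation goes with a larger supply of mitochondria and with remodelling of the surrounding matrix.

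At 48 h, 907 of 8858 genes (10.2%) passed an adjusted p of 0.05 between the Zbed6-silenced and control arrays, with 410 higher (4.63%) and 497 lower (5.61%) in silenced cells. Every p given is from limma's moderated test with Benjamini-Hochberg adjustment over the 8858 genes, and every difference is a log2 difference of normalised intensity, silenced minus control, with its standard error (SE). The typical change was small: the median size among called genes was 0.49 in both directions, 262 genes changed over 1.5-fold and 28 over 2-fold. The median difference of all genes was 0.0005, and 50.1% of genes lay above 0. The 48 h arrays were alike in quality, with 12078 to 12558 detected probes and a median raw intensity of 76.5 to 90.8, and replicates of a group had a median SD of 0.12 in silenced and 0.117 in control cells. Leaving out 1 array at a time reduced the count to between 250 and 543 genes, and 183 of the 907 calls were kept in all 6 such fits. Of the 197 called genes named in the text, 65 kept their call in all 6 fits and 34 kept it in none.

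No probe named Zbed6 was on the array, so the level of the silenced transcript itself was not measured. Zc3h11a, the host gene, read 5.50, 5.16 and 5.24 in silenced cells and 5.79, 5.90 and 5.55 in control cells. Its probe was dim, detected on 1 of 3 silenced and on 3 of 3 control arrays, and its difference of -0.44 ± 0.13 did not pass (adjusted p = 0.0563). Igf2 read 14.74, 14.64 and 14.52 in silenced cells, against 14.45, 14.15 and 14.24 in control cells. The groups did not overlap, but the difference of 0.35 ± 0.11 did not pass at 48 h (adjusted p = 0.0729). The call depended on the setting: Igf2 passed without background correction (0.35), with median scaling (0.48), with an offset of 50 (0.35) and with all 12 arrays in 1 fit (0.35), and in no other setting.

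The labelled cell type was checked against its markers. Of 13 myoblast and myotube markers on the array, 12 were measured, all on every 48 h array, among them Myod1, Myog and Des, and their summed linear level was 217000 to 232000 in silenced and 212000 to 227000 in control cells. Markers of other cell types were few: 3 of 10 adipocyte, 3 of 12 bone and cartilage, 7 of 11 fibroblast, 4 of 11 endothelial or epithelial and 2 of 9 leukocyte markers were measured. The summed leukocyte level was 102 to 119 in silenced and 77.8 to 92.4 in control cells, and of its 2 markers Coro1a was detected on no 48 h array. The other sums overlapped between silenced and control cells, at 1970 to 2090 and 1640 to 2090 for adipocyte, 779 to 1050 and 620 to 796 for bone and cartilage, 7830 to 8760 and 7990 to 8400 for fibroblast, and 323 to 354 and 307 to 360 for endothelial and epithelial markers. In RNA of a whole culture, fewer cells of one kind and less RNA per cell cannot be told apart, and the part of these markers in the class results was not tested.

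The genes were sorted into 141 classes by function, of which 136 had at least 5 measured members. Of these, 57 had at least 1.5 times the called share of all genes or a median at least 0.15 from that of all genes, and they are described here except for 1 class. The clearest common shifts were higher levels of genes of mitochondrial respiration and of several muscle classes, and lower levels of genes of the extracellular matrix, of lysosomal enzymes and of cilia.

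**Figure D1:**
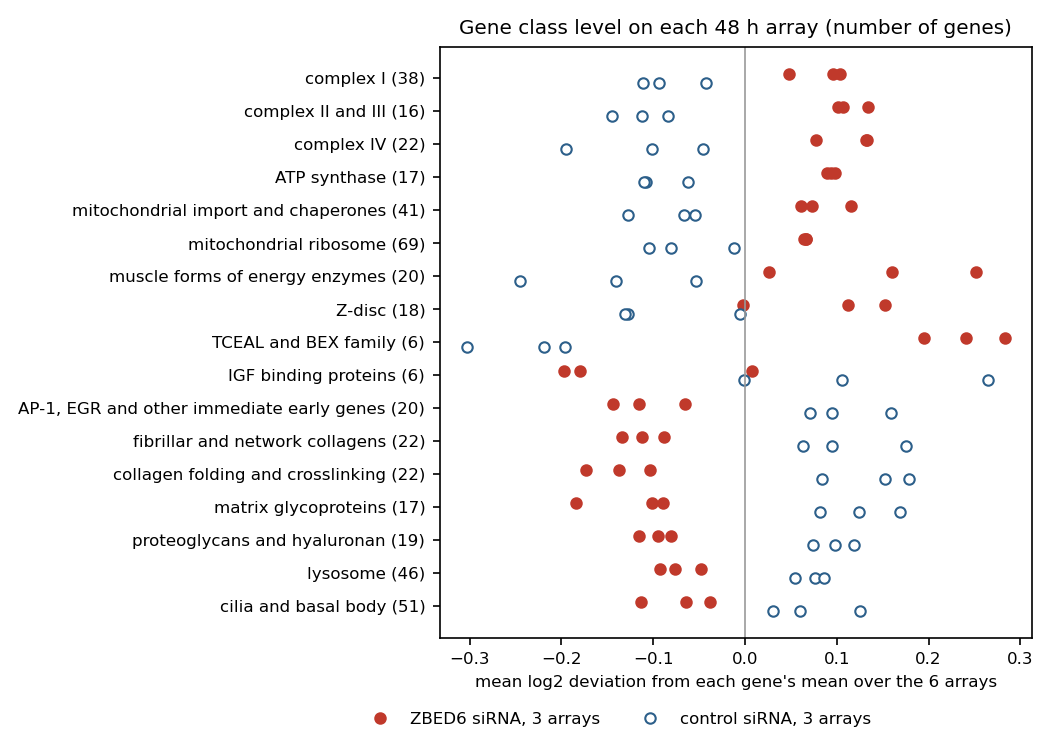
Mean log2 deviation of 17 gene classes on each 48 h array (x axis, each gene set against its own mean over the 6 arrays), with filled points for the 3 ZBED6 siRNA arrays and open points for the 3 control siRNA arrays. Complex I to ATP synthase lie to the right of zero in silenced cells, matrix, lysosome and cilia classes lie to the left, and silenced and control points of the IGF binding proteins overlap.

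Genes of oxidative phosphorylation were higher in Zbed6-silenced cells. These genes encode the 4 respiratory complexes, which pass electrons to oxygen and pump protons, and the ATP synthase, which uses the proton gradient. Of 93 measured genes, 20 were higher and 0 lower (21.5%, against 10.2% of all genes), and 81 had a difference above 0 (87.1%, against 50.1%). The median difference was 0.17, a shift of small size carried by most members. For 52 of the 93, every silenced array exceeded every control array, which held for 16.7% of all genes. The 4 classes summed here all met the rule above by their 48 h values, so the excess over all genes is no independent support. The mean deviation of these genes was 0.10, 0.11 and 0.07 on the silenced arrays and -0.10, -0.12 and -0.07 on the control arrays. The number of calls was unsteady while the direction was not: over the alternative settings between 0 and 15 complex I genes passed, and the complex I median stayed between 0.13 and 0.24. Of the 20 calls, 2 were kept in all 6 leave-one-out fits, with 0 of them in complex I and 0 in the ATP synthase.

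Complex I, the entry point for electrons from NADH, had 6 of 38 genes higher and 0 lower with a median of 0.15. Its accessory subunit Ndufb9 read 11.76, 12.03 and 11.88 in silenced cells and 11.36, 11.46 and 11.54 in control cells (0.43 ± 0.10, adjusted p = 0.0339). Ndufa3 (0.44), Ndufv3 (0.38, with another kept probe of opposite sign) and Ndufb3 (0.33) were also higher. Complexes II and III had 3 of 16 higher with a median of 0.27. Cycs, which encodes the cytochrome c that carries electrons from complex III to complex IV, read 8.22, 8.51 and 8.59 in silenced cells, against 7.73, 7.83 and 7.82 in control cells. That difference of 0.65 ± 0.11 (adjusted p = 0.0134) was kept in all 6 leave-one-out fits, and the second kept probe of the gene gave 0.56. Uqcr10, a small subunit of complex III (0.40), and its assembly factor Uqcc1 (0.37) passed as well.

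Complex IV, the terminal oxidase, had 6 of 22 genes higher with a median of 0.27. Muscle isoforms were among them: Cox8b read 11.13, 11.26 and 10.95 in silenced cells and 10.48, 10.10 and 10.22 in control cells (0.85 ± 0.13, adjusted p = 0.00869), and Cox7a1 differed by 0.66, while the muscle isoform Cox6a2 did not pass (0.50, adjusted p = 0.0521), though it did in 7 of the settings that keep all arrays. The broadly expressed isoform Cox7a2 was higher too, at 9.95, 10.00 and 10.09 in silenced cells and 9.52, 9.45 and 9.62 in control cells (0.48 ± 0.09, adjusted p = 0.0172). Surf1, an assembly factor of the complex, rose by 0.34. Of 17 ATP synthase genes 5 were higher with a median of 0.17, including the membrane subunit Atp5l (0.46), the stalk subunit Atp5o (0.51), Atp5e (0.48) and Atp5mpl (0.34).

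Mitochondrial protein import and folding moved the same way, with 6 of 41 genes higher, 0 lower and a median of 0.15. Chchd4, which oxidises small proteins as they enter the intermembrane space, read 9.60, 9.69 and 9.73 in silenced cells and 9.07, 9.13 and 9.20 in control cells (0.54 ± 0.09, adjusted p = 0.0109). The outer membrane receptor Tomm22 read 9.11, 9.27 and 9.31 in silenced cells, against 8.49, 8.75 and 8.74 in control cells (0.57 ± 0.11, adjusted p = 0.018). Timm10 (0.51) and Timm8b (0.48), chaperones of the intermembrane space, were also higher, as the cochaperones Grpel1 (0.49) and Hspe1 (0.49) of the mitochondrial matrix were. The tricarboxylic acid cycle had a median of 0.19, but of its 30 genes only Cs, the citrate synthase, passed upward (0.40), and Slc25a1, which exports citrate from mitochondria, passed downward (-0.52). Of 69 mitochondrial ribosome genes, 2 were higher and 0 lower with a median of 0.14. Glycolysis showed no common direction: of 22 genes 2 were higher and 3 lower, with Hk1, the hexokinase that commits glucose, at 7.93, 7.60 and 7.71 in silenced cells and 8.72, 8.55 and 8.57 in control cells (-0.87 ± 0.11, adjusted p = 0.00438). The glucose transporter Slc2a1 (-0.47) and Eno2 (-0.46) fell, and Pgk1 (0.75) rose.

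**Figure D2:**
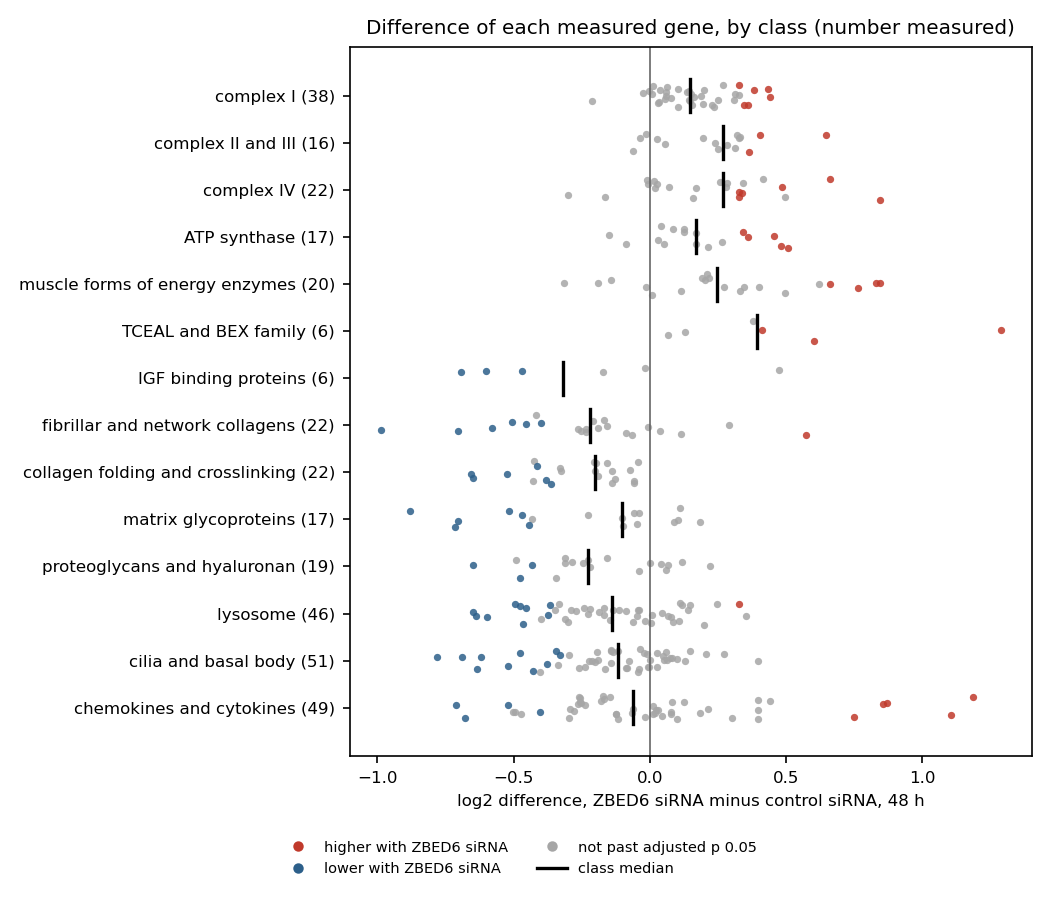
Log2 difference at 48 h (x axis, ZBED6 siRNA minus control siRNA) of each measured gene in 14 classes, coloured by call, with the class median as a black bar. The respiratory classes hold red points but no blue ones, whereas the collagen folding class lies wholly below zero, with 22 of 22 genes there.

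Promoter windows of 5 of these and later genes are shown because the genes moved in the 48 h comparison and their windows hold the letters GCTCGC, a short core of the reported ZBED6 recognition sequence, on one strand or the other (GCGAGC on the opposite strand). Windows are from RefSeq on GRCm38.p6, run 5′ to 3′ on the gene's strand from 250 bases before to 50 bases after the start, and have the matched letters in capitals. The windows are Cycs at chr6:50566520-50566819 on the minus strand, Cox7a2 at chr9:79759804-79760103 on the minus strand, Tomm22 at chr15:79670618-79670917 on the plus strand, Grb10 at chr11:12037371-12037670 on the minus strand and Fos at chr12:85473640-85473939 on the plus strand.
Cycs: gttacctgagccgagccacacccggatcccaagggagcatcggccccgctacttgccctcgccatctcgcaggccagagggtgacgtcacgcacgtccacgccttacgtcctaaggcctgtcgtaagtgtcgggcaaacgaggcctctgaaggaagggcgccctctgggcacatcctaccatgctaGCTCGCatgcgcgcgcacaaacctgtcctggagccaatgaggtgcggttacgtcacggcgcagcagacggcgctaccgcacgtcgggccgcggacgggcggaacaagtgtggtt
Cox7a2: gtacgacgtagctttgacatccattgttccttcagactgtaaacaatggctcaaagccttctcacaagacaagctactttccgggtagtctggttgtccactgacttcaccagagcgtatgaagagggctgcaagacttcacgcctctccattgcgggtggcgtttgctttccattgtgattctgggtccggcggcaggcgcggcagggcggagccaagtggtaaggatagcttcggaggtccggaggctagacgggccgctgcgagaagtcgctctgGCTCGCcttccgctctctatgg
Tomm22: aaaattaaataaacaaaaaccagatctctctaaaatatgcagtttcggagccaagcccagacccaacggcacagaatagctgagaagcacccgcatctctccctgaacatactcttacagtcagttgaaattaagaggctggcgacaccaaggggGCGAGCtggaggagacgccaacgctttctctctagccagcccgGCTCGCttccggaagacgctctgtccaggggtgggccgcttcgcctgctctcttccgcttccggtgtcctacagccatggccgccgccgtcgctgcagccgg
Grb10: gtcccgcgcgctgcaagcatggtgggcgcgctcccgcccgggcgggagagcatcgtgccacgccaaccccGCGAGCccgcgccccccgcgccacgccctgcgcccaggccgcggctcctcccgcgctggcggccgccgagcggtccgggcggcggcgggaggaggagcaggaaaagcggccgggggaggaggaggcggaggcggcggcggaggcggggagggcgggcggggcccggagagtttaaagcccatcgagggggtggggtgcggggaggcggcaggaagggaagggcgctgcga
Fos: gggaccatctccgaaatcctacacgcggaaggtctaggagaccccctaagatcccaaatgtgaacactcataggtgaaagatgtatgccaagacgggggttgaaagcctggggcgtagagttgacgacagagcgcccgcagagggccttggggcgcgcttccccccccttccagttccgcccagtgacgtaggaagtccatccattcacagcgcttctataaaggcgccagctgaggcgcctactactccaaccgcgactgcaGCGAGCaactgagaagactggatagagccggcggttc
The match lay at -64 from the start in Cycs, at 28 in Cox7a2, at -95 and -52 in Tomm22, at -180 in Grb10 and at 13 in Fos. These letters were common among all measured genes: of 7223 genes with a window, 2040 held them in any of their windows (28.2%). Counted by window and not by gene, 4628 of all 32851 windows held them (14.1%), so these shares cannot be compared directly. Among genes with a window, 96 of 316 higher in silenced cells held them (30.4%), and 91 of 406 lower in silenced cells (22.4%). By class the share of genes was 5 of 36 for complex I, 4 of 17 for complex IV, 3 of 15 for the ATP synthase, 2 of 18 for collagens and 13 of 45 for cilia. A match describes letters in a window and no binding.

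Several classes of muscle genes were also higher. The 6 classes that met the rule above (troponins and tropomyosins, Z-disc, M-band and thick filament, sarcomeric myosin light chains, calcium store, and muscle forms of energy enzymes) held 83 genes, of which 13 were higher and 0 lower (15.7%, against 10.2% of all genes) with a median of 0.20. Other muscle classes did not meet it: 0 of 5 sarcomeric myosin heavy chains passed (median 0.07), 0 of 6 sarcomeric actin and thin filament genes (0.03), 1 of 18 dystrophin complex and costamere genes (-0.06), 1 of 20 fusion genes (-0.04) and 0 of 12 genes of the neuromuscular junction (-0.11, with 10 of 12 below 0). The sum over the 6 classes is therefore a sum over classes picked by their 48 h values. Of its 13 calls, 4 were kept in all 6 leave-one-out fits. Over the 83 genes, silenced replicate 3 lay closest to the controls, with mean deviations of 0.12, 0.18 and 0.01 on the silenced arrays and -0.02, -0.14 and -0.14 on the control arrays. Class means on single arrays overlapped between the groups for M-band and thick filament genes and for myosin light chains. The median of the myosin light chains lay between 0.004 and 0.22 over the alternative settings. Troponins and tropomyosins had 2 of 10 higher: Tnni1, the slow inhibitory troponin (0.50), and Tnnt3, the fast troponin T (0.53). The tropomyosin gene Tpm3 gave a split reading, with its brightest probe at -0.36 (not passing) and 3 dimmer probes at 0.63, 0.96 and 1.13, which all passed when every probe was tested by itself (6.93% of kept probes passed). At the Z-disc, which anchors thin filaments, 3 of 18 were higher, with Myoz2 at 10.52, 10.69 and 10.28 in silenced cells and 9.92, 9.69 and 9.89 in control cells (0.66 ± 0.12, adjusted p = 0.0172), Actn2 at 0.61 and Csrp3 at 0.43. Mybpc1, a thick filament binding protein, was the single call among 10 M-band and thick filament genes (0.67), and none of 5 sarcomeric myosin light chains passed although their median was 0.16.

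Calcium storage and release had 3 of 20 genes higher. Stim1, the store calcium sensor, read 9.18, 9.33 and 8.95 in silenced cells, against 8.56, 8.48 and 8.04 in control cells (0.79 ± 0.15, adjusted p = 0.0191). Casq2, a calcium buffer of the store, was higher by 0.56, and Sln, a peptide inhibitor of the calcium pump, was at least 1.09-fold higher, a lower bound set against the dimmest detectable signal because no control array detected it. In the class of muscle forms of energy enzymes, which also held broadly expressed genes such as Gapdh and Ldha, 4 of 20 genes were higher. Ampd1, the muscle AMP deaminase, read 7.25, 7.17 and 6.89 in silenced cells and 6.44, 6.23 and 6.16 in control cells (0.83 ± 0.12, adjusted p = 0.00869). The insulin-regulated glucose transporter Slc2a4 (0.76) and the complex IV isoforms Cox8b and Cox7a1 were the rest. Cox8b and Cox7a1 were counted among the respiratory genes as well, so the respiratory and muscle sums share genes. The mitochondrial creatine kinase Ckmt2 did not pass on its brightest probe (0.62, adjusted p = 0.0533), but its second kept probe (0.81) passed when every probe was tested by itself.

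The regulators of myogenesis gave mixed calls around a median of 0.04. Mef2c, a partner of the myogenic factors, read 8.74, 8.93 and 8.55 in silenced cells and 7.97, 7.68 and 7.83 in control cells (0.91 ± 0.12, adjusted p = 0.00583), and Srf, which drives actin genes, was higher by 0.42, though another kept Srf probe had the opposite sign. Rbm24, an RNA-binding splicing regulator of muscle, was lower (-0.66). Myod1 read 11.88, 11.69 and 11.73 in silenced cells and 11.83, 11.72 and 11.63 in control cells, a difference of 0.04 ± 0.10 that did not pass. Of 19 inhibitors of myogenesis, Msc (0.60) and Hey1 (0.44) were higher, while Twist2 was lower at 6.88, 6.95 and 6.95 in silenced cells and 7.58, 7.43 and 7.41 in control cells (-0.55 ± 0.09, adjusted p = 0.0109). Cdkn1c, an inhibitor of cyclin-dependent kinases counted with quiescence genes, was higher by 0.45.

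The extracellular matrix showed the reverse direction. Of 92 structural matrix genes, 22 were lower and 1 higher (25%), 77 had a difference below 0 (49.9% of all genes did), and the median was -0.20. For 39 of the 92, every silenced array was under every control array, which held for 17.4% of all genes. The 5 classes summed here all met the rule above by their 48 h values, so the excess over all genes is no independent support. Matrix proteases, which split, were counted apart. The mean deviation was -0.13, -0.12 and -0.10 in silenced cells and 0.07, 0.15 and 0.12 in control cells. Over the alternative settings the collagen median lay between -0.25 and -0.08 and the proteoglycan median between -0.25 and -0.04.

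Of 22 collagens, fibrillar and of other types, 6 were lower and 1 higher. Col18a1, a basement membrane collagen, read 12.36, 12.27 and 12.33 in silenced cells and 13.20, 13.39 and 13.33 in control cells (-0.99 ± 0.09, adjusted p = 0.00145). Col5a1, a fibril-nucleating chain, read 12.61, 12.53 and 12.63 in silenced cells, against 13.23, 13.17 and 13.11 in control cells (-0.58 ± 0.08, adjusted p = 0.00855). Col16a1 (-0.70), Col1a1 (-0.51), Col17a1 (-0.45) and Col1a2 (-0.40) completed the falls, and Col24a1 was at least 1.11-fold higher, being undetected on all control arrays. Enzymes and partners that fold, trim and crosslink collagen were lower as a class: all 22 had a difference below 0 and 6 passed. Bmp1, the procollagen C-proteinase, read 11.14, 11.23 and 11.24 in silenced cells and 11.89, 11.82 and 11.85 in control cells (-0.65 ± 0.08, adjusted p = 0.0051), with 1 of its other kept probes at 0.01. Lox, which crosslinks collagen (-0.66), Sparc, a collagen-binding matrix protein (-0.52), Pcolce (-0.38), Pcolce2 (-0.41) and the lysyl hydroxylase Plod3 (-0.36) also fell.

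Matrix glycoproteins had 6 of 17 genes lower. Thbs2, a thrombospondin, read 9.13, 9.02 and 9.55 in silenced cells and 9.91, 10.12 and 10.31 in control cells (-0.88 ± 0.15, adjusted p = 0.0146), and Thbs1 was lower by a similar size (-0.70). Tgfbi (-0.72), Aebp1 (-0.52), Igfbp7 (-0.47) and Fbln7 (-0.44) were the other falls. Among 19 proteoglycan and hyaluronan genes 3 fell: the hyaluronan synthase Has2 (-0.43), the hyaluronidase Hyal1 (-0.65) and the heparan sulfate proteoglycan Sdc3 (-0.48). The basement membrane linker Nid2 fell by 0.41 on the log2 scale. Proteases acting on the matrix split, with 4 of 28 higher, among them Plau, the urokinase activator (0.59), Htra3 (0.81) and Mmp11 (0.42), and 2 lower, one of them Serpinf1 (-0.44).

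**Figure D3:**
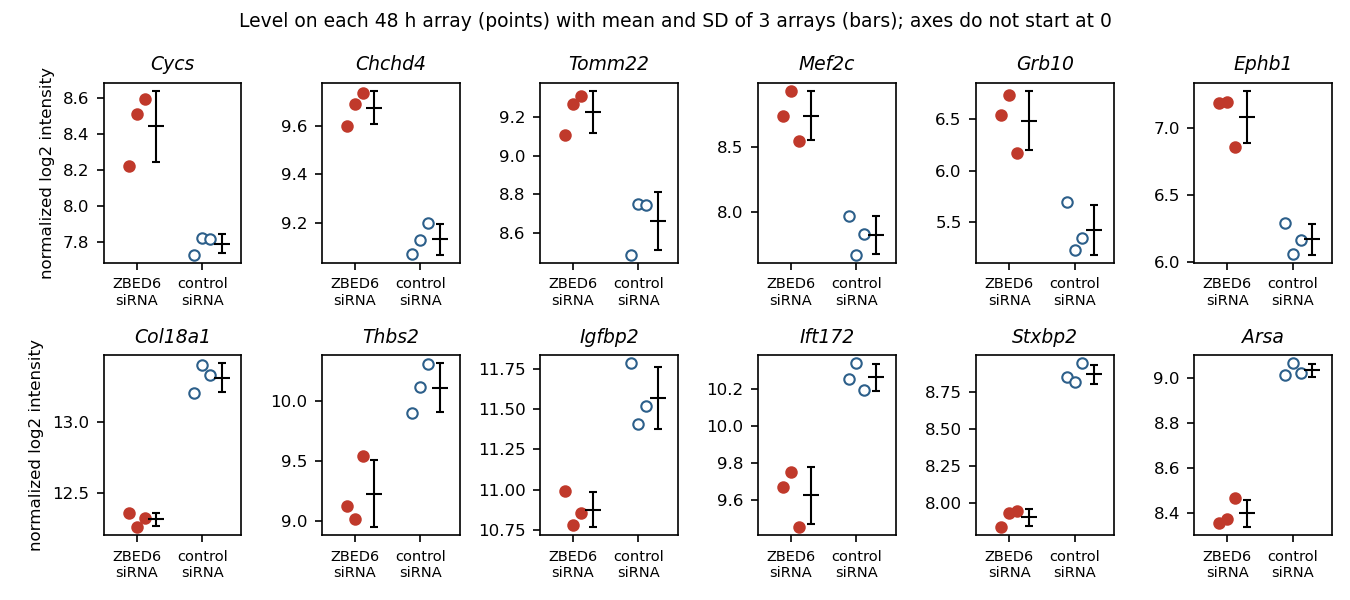
Normalised log2 intensity (y axis) of 12 genes on each 48 h array, ZBED6 siRNA to the left and control siRNA to the right, with the mean and SD of 3 arrays beside the points. Cycs, Chchd4, Tomm22, Mef2c, Grb10 and Ephb1 lie higher in silenced cells, the other 6 lie lower, and the groups do not overlap for any of them.

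The genes called in the insulin-like growth factor axis were binding proteins, a receptor and an adaptor. Igf2 itself, given above, did not pass in the main fit, although its silenced and control arrays did not overlap and it passed in some settings. The paper counted the rise of Igf2 among those its own array analysis bore out. Igfbp2, a secreted IGF-binding protein, read 10.99, 10.78 and 10.85 in silenced cells and 11.78, 11.41 and 11.52 in control cells (-0.69 ± 0.12, adjusted p = 0.0125). Igfbp6, which prefers IGF2, was lower by a similar size, at 9.19, 9.06 and 8.98 in silenced cells, against 9.82, 9.47 and 9.73 in control cells (-0.60 ± 0.11, adjusted p = 0.0182). With Igfbp7, 3 of 6 measured binding proteins fell, Igfbp5 did not pass (-0.17), and the class mean on single arrays overlapped between the groups. Igfbp4 did not pass on its brightest probe (0.47, adjusted p = 0.106), but its second kept probe was higher by 0.91 and passed when every probe was tested by itself. Of 13 ligands, receptors and adaptors, Igf2r, which clears IGF2 from the cell surface, fell (-0.40), and Grb10, an adaptor that restrains insulin and IGF receptor signalling, rose to 6.54, 6.74 and 6.17 in silenced cells, against 5.69, 5.22 and 5.34 in control cells (1.07 ± 0.17, adjusted p = 0.01). Both are imprinted, and of 24 imprinted genes 3 were higher and 4 lower, including Cdkn1c and Snrpn (0.33) above and Ndn (-0.47) and H13 (-0.47) below.

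Other growth factor pathways that met the rule above mostly gave falls. Pathways that did not meet it showed no such lean: FGF signalling had 1 of 19 genes higher and 0 lower (median 0.05). Wnt ligands, receptors and secreted inhibitors had 1 of 21 higher and 1 lower, and Notch genes 2 of 20 higher and 1 lower. Of 20 PDGF, VEGF, HGF and angiogenic genes, 4 were lower and 0 higher, with Angptl4 at 10.08, 10.03 and 10.22 in silenced cells and 10.84, 10.74 and 10.81 in control cells (-0.68 ± 0.09, adjusted p = 0.00583), the VEGF receptor Flt1 at -0.67, the HGF receptor Met at -0.62 and Pdgfa at -0.39. In the TGF-beta class the receptor Tgfbr1 (0.51, with another kept probe of opposite sign) and its effector Smad2 (0.43) were higher, while the latency protein Ltbp3 was lower (-0.43). Of 19 BMP genes 3 were lower, among them the antagonist Grem1 (-0.44) and the inhibitory Smad6, at least 1.13-fold lower and undetected in silenced cells. Of 14 Wnt intracellular genes the corepressor Tle2 (-0.85) and the target Ccnd1 (-0.57) fell. PPM phosphatases rose in 2 of 11 cases, Ppm1e (0.79 ± 0.09, adjusted p = 0.00438) and Ppm1l (0.37).

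Immediate early genes, which respond within minutes to serum and stress signals, had a median of -0.28 with 4 of 20 lower and 0 higher. Fos read 8.38, 8.28 and 8.55 in silenced cells and 9.04, 9.0 and 8.93 in control cells (-0.59 ± 0.10, adjusted p = 0.0118), a call kept in all 6 leave-one-out fits. Junb (-0.56), Gadd45b (-0.47) and Ier3 (-0.36) each lost their call in every such fit, and the class median was -0.10 with the authors' processed values. In cytokine and STAT3 signalling, the shared receptor subunit Il6st (0.57) and the inhibitor Socs6 (0.73 ± 0.12, adjusted p = 0.0109) were higher, whereas the oncostatin receptor Osmr (-0.53), the ligand Clcf1 (-0.64) and Socs3 (-0.44) were lower. Among YAP and SRF target genes, Actg2, a smooth muscle actin (0.59), and the YAP partner Tead4 (0.41) were higher and the receptor kinase Axl lower (-0.46).

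Guidance cues and their receptors had 3 of 46 genes higher and 6 lower. Ephb1, an ephrin receptor, read 7.19, 7.20 and 6.86 in silenced cells and 6.29, 6.06 and 6.16 in control cells (0.91 ± 0.12, adjusted p = 0.0051), and Sema6b was higher by 1.13. Epha1 went the other way, at 7.43, 7.33 and 7.40 in silenced cells and 7.95, 7.94 and 7.95 in control cells (-0.56 ± 0.08, adjusted p = 0.00855), as did Sema7a (-0.74). Junction genes had 3 of 21 higher, with the claudin Cldn2 (0.88) and the scaffold Patj (0.53) beside Gjd4, a connexin of muscle (1.43), and Cldn15 was lower (-0.34). Of 14 caveola genes, Cav1 (-0.45) and Ehd2 (-0.71) fell and Cavin2 rose (0.58). Tetraspanins Tspan12 (0.37) and Tspan17 (-0.45) split.

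Lysosomal genes were lower in 9 of 46 cases and higher in 1, with a median of -0.14. The called share was 21.7%, against 10.2% of all genes, but this class too was picked by its 48 h values, so the excess is no independent support. Only 2 of its calls were kept in all 6 leave-one-out fits. Over the alternative settings 2 to 13 genes were lower, and the median lay between -0.17 and -0.06. Arsa, the arylsulfatase that degrades sulfatide, read 8.35, 8.37 and 8.47 in silenced cells and 9.01, 9.07 and 9.02 in control cells (-0.64 ± 0.08, adjusted p = 0.00556). Sgsh (-0.60), Naglu (-0.49), Gusb (-0.48) and Glb1 (-0.46), hydrolases of glycans, were lower too, as was the membrane protein Cln3 (-0.47), while the lipase Lipa was higher (0.33). The proton pump that acidifies the lysosome did not follow as a class: 3 of 20 vacuolar ATPase genes fell, among them Tcirg1 (-0.42) and Atp6v1g2 (-0.41), Atp6v1b1 rose (0.51), and the class median was 0.08.

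Genes of the cilium, a sensory projection built by transport along microtubules, had 10 of 51 lower and 0 higher, with a median of -0.12. The called share was 19.6%, against 10.2% of all genes, but the class met the rule above by its 48 h values, so the excess is no independent support. Of the 10 calls, 1 was kept in all 6 leave-one-out fits. Over the alternative settings 2 to 13 genes were lower, and the median lay between -0.15 and -0.03. Ift172, a subunit of the transport complex, read 9.67, 9.75 and 9.45 in silenced cells and 10.25, 10.34 and 10.19 in control cells (-0.64 ± 0.10, adjusted p = 0.0109). Ift122 (-0.78), Ift88 (-0.43) and Ift80 (-0.48) of the same machinery were lower, and so were the transition zone genes Nphp4 (-0.69) and Tctn2 (-0.62) and the Bardet-Biedl gene Bbs2 (-0.38). The class mean was -0.11, -0.06 and -0.04 on the silenced arrays and 0.03, 0.13 and 0.06 on the control arrays.

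The D cyclins changed in opposite directions. Ccnd1 read 11.62, 11.53 and 11.99 in silenced cells and 12.30, 12.23 and 12.31 in control cells, Ccnd2 fell further (-1.11), and Ccnd3, the D cyclin of differentiating muscle, was higher at 13.70, 13.63 and 13.72 in silenced cells, against 13.47, 13.25 and 13.28 in control cells (0.35 ± 0.09, adjusted p = 0.0466). With E2f4, a repressor E2F (0.40), and Cdkn1c, 3 of 20 genes of this class were higher and 2 lower. Genes of DNA replication had 7 of 47 lower and 0 higher with a median of -0.11, and 1 of 47 mitosis genes was lower. Of 23 p53 targets 5 fell and 1 rose: Ephx1, an epoxide hydrolase (-0.71), Gtse1 (-0.52) and the apoptosome component Apaf1 (-0.45) were lower, and Pmaip1, a BH3-only death protein, was higher (0.44). The survival gene Bcl2 was higher at 6.45, 6.48 and 6.41 in silenced cells and 5.89, 5.71 and 6.08 in control cells (0.55 ± 0.11, adjusted p = 0.0195).

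Transport and lipid genes changed one by one. Of 103 solute carriers outside the nutrient classes 6 were higher and 12 lower, with Slc4a8, a bicarbonate exchanger, at 7.04, 7.04 and 6.84 in silenced cells and 7.83, 7.57 and 7.72 in control cells (-0.74 ± 0.11, adjusted p = 0.00793), and the nucleoside carrier Slc29a3 (-0.67) lower as well. Of 17 ABC transporters 3 fell: Abcc10 (-0.64), Abca7 (-0.55) and Abcb1b (-0.55). Of 53 phospholipid and sphingolipid genes 3 were higher and 6 lower. Sphk1, which makes sphingosine 1-phosphate, read 9.33, 9.28 and 9.41 in silenced cells and 10.02, 10.04 and 10.16 in control cells (-0.73 ± 0.09, adjusted p = 0.00438), with another kept probe at 0.19. Crls1, the cardiolipin synthase of mitochondria, was higher at 8.91, 9.18 and 9.19 in silenced cells, against 8.44, 8.37 and 8.53 in control cells (0.65 ± 0.10, adjusted p = 0.0109). The polyamine acetylase Sat1 was higher (0.56) and the amine oxidase Aoc3 lower (-0.94).

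Immune genes changed in both directions. Of 49 chemokine and cytokine genes 5 were higher and 4 lower. Ccl11, the eosinophil attractant eotaxin, read 6.84, 6.63 and 6.40 in silenced cells and 5.37, 5.47 and 5.71 in control cells (1.11 ± 0.14, adjusted p = 0.00438). Il15, a cytokine made by muscle, was higher by 0.86, Ccl8 was at least 1.48-fold higher and undetected on all control arrays, and Csf1, the macrophage growth factor, was lower (-0.68). In the interferon response 2 of 37 genes were higher and 6 lower, with the GTPase Igtp above (0.77) and Lgals3bp (-0.77) and the kinase Eif2ak2 (-0.48) below. Of 19 Toll-like and NOD receptor genes, Tlr2 was lower at 7.71, 7.28 and 7.41 in silenced cells and 8.10, 8.33 and 8.19 in control cells (-0.74 ± 0.12, adjusted p = 0.0126), with Nod1 (-0.45) and the adaptor Myd88 (-0.42) lower and the inhibitor Tollip higher (0.44). The summed leukocyte markers read 102 to 119 in silenced and 77.8 to 92.4 in control cells. That sum rested on 2 of 9 markers, both dim, of which Coro1a was detected on no 48 h array, and its part was not tested.

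The small nuclear TCEAL and BEX family had the highest median of the classes with at least 5 measured genes, 0.39, and all 6 of its measured genes were above 0. Tceal1 read 6.89, 6.96 and 7.17 in silenced cells and 6.19, 6.53 and 6.50 in control cells (0.60 ± 0.12, adjusted p = 0.0222), and Tceal9 (0.41) and Tceal5 (1.29) passed too. Among 31 chromatin remodelling genes, Smarca2, an ATPase of the BAF complex, was lower at 8.88, 8.90 and 8.88 in silenced cells and 9.32, 9.50 and 9.39 in control cells (-0.52 ± 0.09, adjusted p = 0.0125), Smarcc1 was lower (-0.61) and Smarce1 (0.39) and Ino80c (0.39) higher. The clock output factor Dbp fell at 9.95, 9.93 and 9.90 in silenced cells, against 10.65, 10.41 and 10.47 in control cells (-0.58 ± 0.09, adjusted p = 0.0109), with Timeless lower (-0.34) and a class median of -0.17 over 18 genes. Hypoxia genes gave 3 rises and 1 fall among 21, the rises being Higd1a (0.49), Ndrg2 (0.50) and Vhl (0.37). Of 12 genes often used as references, 2 were higher and 1 lower, namely Pgk1, the transferrin receptor Tfrc (0.44) and Gusb, and their median was 0.15.

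Below the 8 largest changes in each direction, the rises ranked 9 to 20 spanned 0.95 to 1.19. Ido1, which degrades tryptophan, was at least 1.81-fold higher, at 6.18, 6.27 and 6.04 in silenced cells and 4.94, 5.23 and 4.76 in control cells, none of which detected it. Lpl, the lipoprotein lipase, read 9.31, 9.39 and 9.53 in silenced cells, against 8.36, 8.40 and 8.52 in control cells (0.98 ± 0.10, adjusted p = 0.00186). Chil1, a secreted chitinase-like protein, differed by 1.11, the kinase Aatk by 1.12, the Ras-association gene Rassf2 by 1.02, Rpl3l, the muscle form of a ribosomal protein, by 1.01 and the exocyst subunit Exoc4 by 0.95. Rnase1 and 2310002L09Rik were at least 1.24-fold and 1.30-fold higher, with no detection on control arrays. The falls ranked 9 to 20 included several metabolic enzymes. Dcxr, a sugar reductase, read 6.90, 6.89 and 6.64 in silenced cells and 7.78, 7.95 and 7.74 in control cells (-1.01 ± 0.11, adjusted p = 0.00271). Stxbp2, a vesicle fusion protein, read 7.84, 7.93 and 7.94 in silenced cells and 8.85, 8.82 and 8.94 in control cells (-0.97 ± 0.09, adjusted p = 0.00135). Hyi (-0.98), Bdh2 (-0.96), Fam102a (-0.95), the Max partner Mxd4 (-0.94) and Nipsnap1 (-0.91) were lower by like amounts, and Kcp and Bsg were at least 1.33-fold and 1.24-fold lower, being undetected on the silenced arrays.

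The 79 classes outside this account had called shares of 0 to 15% and medians of -0.14 to 0.15. Among them, 0 of 18 proteasome core genes passed although 16 of 18 lay above 0 (median 0.10), and none passed of 17 tubulins, 28 genes of ubiquinone, cholesterol and isoprenoid synthesis and 34 genes of the integrated stress response. Of 187 zinc finger proteins 2 were higher and 2 lower, and 5 of 37 large ribosomal subunit genes were higher with 30 of 37 above 0 (median 0.13). Small shifts above 0 were therefore not limited to the respiratory genes. Called genes were not concentrated at dim probes, since the called share was 8.67%, 12%, 11% and 9.3% in 4 equal bins of increasing mean level.

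The 48 h effect was then set beside that at 96 h, where 605 genes passed (6.83%). Of the 907 genes called at 48 h, 664 had the same sign at 96 h (73.2%, against 55.7% of all genes), and 119 were called at 96 h in the same direction. The difference between the 48 h and 96 h effects passed for 398 genes (4.49%), with 187 positive and 211 negative. The respiratory genes had a median of 0.17 at 48 h and 0.02 at 96 h, when 0 of 93 passed, and the difference between the times passed for 4 of the 93. The 83 genes of the 6 muscle classes had a median of 0.20 at 48 h and 0.33 at 96 h, with 21 higher and 2 lower of 83 at 96 h. Structural matrix genes had a median of -0.20 at 48 h and -0.12 at 96 h, with 9 lower and 1 higher of 92. The difference between the class medians was not tested. Single genes whose effect differed by the interaction test included Cycs (0.65 at 48 h and -0.09 at 96 h), Cox7a2 (0.48 and -0.18), Lpl (0.98 and -0.06), Slc40a1, the iron exporter (1.41 and -0.03), Col18a1 (-0.99 and 0.09), Hk1 (-0.87 and 0.33) and Ift172 (-0.64 and 0.16).

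**Figure D4:**
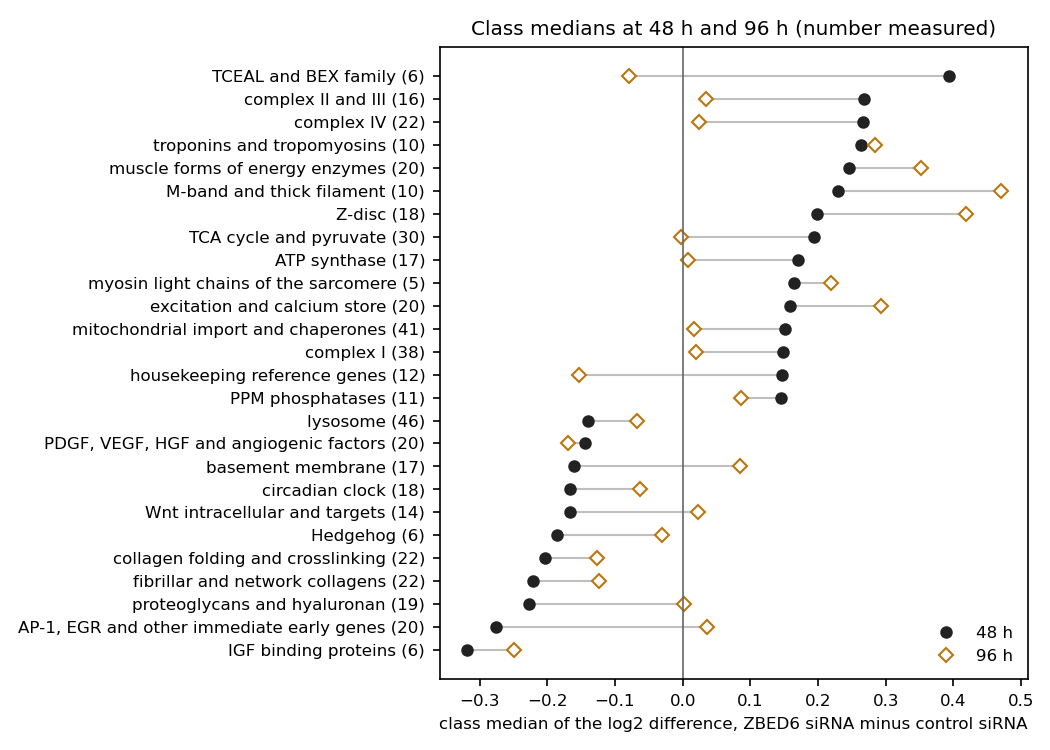
Median log2 difference (x axis, ZBED6 siRNA minus control siRNA) of the described classes with a 48 h median at least 0.14 from zero, with 48 h as filled circles and 96 h as open diamonds. The respiratory classes lie near zero at 96 h, while the sarcomere classes lie as far or farther above zero.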

How the data were processed

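The authors deposited a table of raw Illumina bead-summary intensity values with a detection p-value for each probe and array, with no background subtraction or normalisation, and a second table of log2 processed values, made by the authors with the lumi method in FlexArray. Every value column belonged to a labelled sample, and 0 columns were left over. The raw intensities of all 12 arrays were background-corrected by normexp with negative control means inferred from the detection p-values, given an offset of 16, quantile normalised and put on the log2 scale in limma 3.58.1 (R 4.3.3). The deposited processed values served as an alternative. A probe entered the fit when 3 or more of the 12 arrays gave it a detection p under 0.05, and the brightest such probe stood for its gene. The 3 silenced and 3 control arrays at 48 h were fitted with lmFit and eBayes and adjusted by Benjamini-Hochberg at 0.05. The contrast of the 48 h with the 96 h effect used all 12 arrays. A probe detected on no array of 1 group was given a lower bound of its fold. The number of arrays limits the precision, since no read depth exists for arrays.

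The members and lists were chosen with earlier results of these data known. Of the class names found by pattern, 26 were dropped because their function did not match the class. Genes were named by 1 rule, namely Igf2, Zc3h11a and Zbed6 where measured, up to 4 members past the threshold with the smallest p and up to 2 members with the largest difference not passing in each described class, the rises and falls ranked 9 to 20, and the 3 smallest interaction p-values in each direction. Another 23 genes were named after their values were seen, among them the markers Myod1, Myog, Des and Coro1a and Col1a1, Col1a2, Thbs1, Ccnd3, Socs3, Grpel1 and Hspe1. The fit was tested on simulated data. Alternatives were the processed values, no background correction, median scaling, the 48 h arrays alone, an offset of 50, no filter, a stricter filter (p under 0.01 on at least 6 arrays), the mean over probes, all 12 arrays in 1 fit, a replicate block, and leaving out each array. A class and its genes are not reported here.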

Additional observations from a re-analysis of the deposited data

Results flagged for a closer look

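The effect of silencing differed between 48 h and 96 h for 398 genes by limma's interaction contrast with Benjamini-Hochberg adjustment over all 8858 genes, and 45 of them are named here. Each value is the log2 difference at 48 h minus that at 96 h, from 3 silenced and 3 control arrays at each time. The smallest p-values with a positive value were those of Slc40a1 (1.44), Tex14 (1.63) and Mc4r (1.20), and those with a negative value were Col18a1 (-1.07), Atg9b (-1.53) and Bsg (-0.87).

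Among mitochondrial genes the values were 0.73 for Cycs, 0.66 for Cox7a2, 0.71 for Tomm22 and 0.45 for Ndufb3. Among muscle and actin genes they were 0.84 for Mef2c, 0.43 for Srf, 0.52 for Actg2, 0.62 for Hey1 and 0.76 for Gjd4. Secreted and immune genes gave 1.06 for Ccl11, 0.84 for Ccl8, 1.12 for Ido1, -0.83 for Clcf1 and -0.77 for Tlr2. Matrix genes gave -0.72 for Col1a1, -0.59 for Col5a1, -0.69 for Bmp1, -0.80 for Tgfbi and -0.51 for Has2. Col1a1 was lower at 48 h (-0.51) and stood at 0.21 at 96 h.

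Growth factor genes gave 1.12 for Igfbp4, -0.75 for Igfbp6, -0.53 for Igf2r, 0.59 for Tgfbr1 and -0.91 for Kcp. Cilium genes gave -0.79 for Ift172, -0.73 for Ift122 and -0.82 for Nphp4. Metabolism and transport gave -1.20 for Hk1, 1.04 for Lpl, -0.54 for Slc2a1, -0.93 for Slc4a8, -0.70 for Slc29a3, -0.69 for Abca7, -0.69 for Dcxr and 0.66 for Sat1. The last were 0.53 for Tceal9, -0.43 for Tspan17, -0.59 for Fam102a and 0.85 for 2310002L09Rik.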

How the results depend on the processing

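The count of 907 genes at 48 h (410 higher and 497 lower) was 1470 without background correction (708 higher and 762 lower), 1397 with all 12 arrays in 1 fit (655 higher), 468 with median scaling (250 higher and 218 lower), where the median of all genes moved to 0.04, and 1304 with an offset of 50 (623 higher). The remaining settings gave 678 to 1090. Leaving out 1 array gave 250 to 543 genes (106 to 249 higher and 144 to 294 lower): 543, 272 and 436 without silenced replicate 1, 2 and 3, and 380, 250 and 307 without control replicate 1, 2 and 3. The 398 genes whose effect differed between 48 h and 96 h became 642 with the authors' processed values, 770 without background correction, 123 with median scaling, 657 with an offset of 50 and 89 to 321 without 1 array. The labels share replicate numbers between groups, but deviations of same-numbered samples correlated at only 0.17, -0.06 and 0.08, so the numbers were not taken as pairs, and with the replicate number as a block 678 genes passed at 48 h and 206 differed between the times. A change of sign was counted only where the gene passed in the main or the alternative fit. Over the settings that keep all arrays, 2567 of 2964 named gene values kept their side of the threshold without such a change. Another 176 lost the call, 220 gained it and 1 changed sign, namely Tpm3 at 0.59 with the mean over its probes. Of 1800 leave-one-out values, 501 lost the call and none changed sign in this sense. Of 912 class medians over 16 settings, 17 moved by more than the replicate SD, and the 21 classes with a median at least 0.15 from that of all genes kept their sign in every setting. The causes of these changes were not tested. The 6 arrays and modest fold changes limit the single calls, and dim probes such as those of Zc3h11a lie near the detection limit.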
